A study of Mus musculus with 2 samples.

Results

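Basement membranes are thin sheets of extracellular matrix that lie under epithelia and endothelia and wrap pericytes, Schwann cells, fat cells and muscle fibres. They are built on 2 polymers, a laminin network that forms at the cell surface and a collagen IV network that gives the sheet its strength, and these are bridged by nidogen and by perlecan, a heparan sulfate proteoglycan. Collagens XV and XVIII carry glycosaminoglycan chains and sit at the border between the basement membrane and the tissue around it. The 10 genes described here encode 2 collagen IV chains (Col4a1, Col4a2), both of those border collagens (Col15a1, Col18a1), 4 laminin chains (Lama2, Lama4, Lamb1, Lamc1), nidogen-1 (Nid1) and perlecan (Hspg2). They were matched by gene symbol, and each was found once among the 32285 genes of the count matrices.

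The cells came from the site of a healing tendon wound in which bone can form outside the skeleton (heterotopic ossification). Both groups were male C57BL/6 mice aged 8 to 10 weeks that received a dorsal burn over 30% of the body surface and a cut through the Achilles tendon, and in both the wound was harvested 7 days later and dissociated with collagenase and dispase without sorting. The irradiated group also received 1 dose of 7 Gy to the wound, and the control group received none. The labels describe radiotherapy on postoperative day 1 or day 3, the series text mentions a day 3 after radiation, and the day on which the mice of this library were treated is unsure. Each group was 1 single-cell library made with the 10x 3' chemistry, and the labels give 10 mice per arm without stating in the sources used here how many were pooled in a library. Irradiation and library therefore cannot be told apart, no test was made, and every interval given below is a 95% interval for counting error alone.

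The irradiated library held 8302 barcodes and 111753092 unique molecular identifiers (UMIs, each standing for 1 captured transcript), and the control library held 11369 barcodes and 180080740 UMIs. After filtering, 7126 irradiated and 8744 control cells remained, with medians of 10134.5 and 13242 UMIs, and 21 of the kept barcodes occurred in both libraries. Doublets were removed at an automatic score threshold that differed, which took out 0.867% of irradiated and 5.005% of control barcodes. Cells were clustered without the 10 genes and named from marker genes, which gave 641 irradiated and 2318 control mesenchymal-like cells (8.995% and 26.5% of their libraries), 314 and 512 endothelial-like cells, 186 and 281 mural cells (pericytes and smooth muscle, by their markers), 134 and 104 Schwann-like cells, and 1267 and 2112 keratinocyte-like cells. The rest were mainly macrophages, neutrophils, dendritic cells and T or NK cells. The summed endothelial markers stood at 7755 and 6864 CPM (a gene's share of all UMIs of a class, scaled to a fixed total) in irradiated and control endothelial-like cells, against 62.5 and 53.7 CPM in the mesenchymal-like cells. Tendon-like cells were among the mesenchymal-like cells, in a subcluster led by Kera, Fmod and Tnmd. The cartilage markers Acan and Col2a1 were also among its leading genes. Tendon markers summed to 8628 CPM in irradiated and 5984 CPM in control cells of that subcluster. They were present in other subclusters too, for instance at 3334 and 1047 CPM in the one led by Brinp1 and Bmper.

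The collagen IV pair shares 1 promoter region, and its sequence is shown because the levels of the pair ran together from cell type to cell type. On GRCm38, Col4a1 lies on the minus strand at chr8:11198423-11312826 and Col4a2 on the plus strand at chr8:11312805-11449287, so the pair is transcribed in opposite directions from starts 21 bases apart. The promoter windows of RefSeq (GRCm38.p6), from 250 bases before to 50 bases after each start, are chr8:11312777-11313076 for Col4a1, read on the minus strand, and chr8:11312555-11312854 for Col4a2, read on the plus strand. Capitals mark the 78 bases, chr8:11312777-11312854, that lie in both windows and are therefore reverse complements of each other.
Col4a1: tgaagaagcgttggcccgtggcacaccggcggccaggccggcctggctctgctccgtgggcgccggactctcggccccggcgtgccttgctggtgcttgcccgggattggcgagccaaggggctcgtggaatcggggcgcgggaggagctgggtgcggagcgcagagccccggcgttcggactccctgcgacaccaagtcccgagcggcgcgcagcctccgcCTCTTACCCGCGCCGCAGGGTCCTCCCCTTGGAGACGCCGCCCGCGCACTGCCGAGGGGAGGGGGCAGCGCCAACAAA
Col4a2: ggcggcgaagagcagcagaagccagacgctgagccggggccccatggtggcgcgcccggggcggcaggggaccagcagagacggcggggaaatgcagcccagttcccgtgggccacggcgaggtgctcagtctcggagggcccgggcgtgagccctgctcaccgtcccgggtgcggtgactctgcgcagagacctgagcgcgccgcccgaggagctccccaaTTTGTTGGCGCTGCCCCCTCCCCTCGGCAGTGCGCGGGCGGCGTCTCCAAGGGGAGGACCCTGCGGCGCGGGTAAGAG
Both windows are rich in G and C, at 74% and 73.7%, against a median of 52.7% over all 32851 windows, and hold 37 and 33 CpG dinucleotides, against a median of 7. A GC box (GGGCGG, either strand) occurs 1 time in the Col4a1 window and 3 times in the Col4a2 window, and is present in 35.7% of all windows. The letters CCAAT, on either strand, occur 1 time in each window and are present in 37.4% of all windows. TATAAA is absent from both, as from all 9 windows found for the members, and is present in 13.6% of all windows. These are matches of letters and not mapped binding sites. Windows were found for 8 of the 10 genes, with Lama4 and Lamc1 the ones without.

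Levels of the 10 genes divided the classes into a vascular, nerve and stromal group and the remaining cells. Endothelial-like, mural, Schwann-like and mesenchymal-like cells held most transcripts in both libraries, and the keratinocyte-like and immune cells held little apart from Col18a1 and Lamc1. Over the 10 genes together, mesenchymal-like cells supplied 30.6% of irradiated and 39.5% of control UMIs, endothelial-like cells 28.4% and 29.3%, and mural cells 18.7% and 13.3%. Schwann-like cells supplied 4.69% and 2.58% and keratinocyte-like cells 8.71% and 6.10%.

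**Figure D1:**
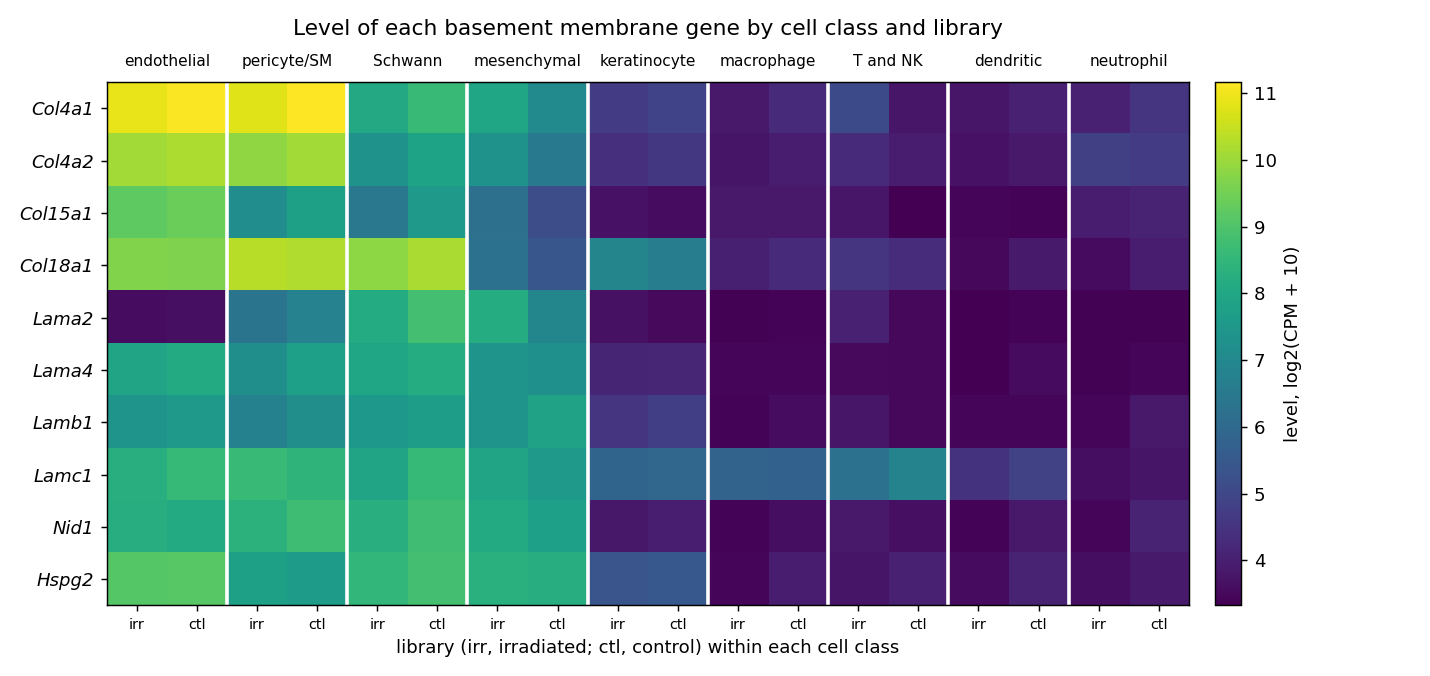
Level of each of the 10 genes, as log2(CPM + 10) by colour, in 9 cell classes, with the irradiated library left of the control library in each class. Col4a1 is brightest in endothelial-like cells (1899 and 2239 CPM) and in mural cells (1767 and 2295 CPM), and Lama2 in mesenchymal-like and Schwann-like cells.

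Col4a1 and Col4a2 encode the alpha 1 and alpha 2 chains, which join in 1 triple helix that is found in nearly every basement membrane. Col4a1 stood at 1899 CPM (interval 1862 to 1936) in irradiated and 2239 CPM (2209 to 2269) in control endothelial-like cells, and at 1767 CPM (1725 to 1810) and 2295 CPM (2252 to 2339) in mural cells. The order of these classes was endothelial first in the irradiated library, while in the control library their intervals overlapped. Schwann-like cells held 258 and 382 CPM, mesenchymal-like cells 234 and 123 CPM, and keratinocyte-like cells 15.5 and 19.9 CPM. The control lymphatic endothelial-like cells, the only lymphatic sample with 50 or more cells, held 621 CPM. Col4a2 stood at 1074 and 1162 CPM in endothelial-like, 932 and 1069 CPM in mural, 149.7 and 223 CPM in Schwann-like and 149 and 80.5 CPM in mesenchymal-like cells.

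The chains were captured in similar proportions in the vessel, nerve and stromal classes. Since the 3' method counts 1 tag per transcript, UMIs do not scale with transcript length, and Col4a1 gave 1.77 UMIs per Col4a2 UMI in irradiated and 1.93 in control endothelial-like cells, 1.90 and 2.15 in mural cells, 1.57 and 1.52 in mesenchymal-like cells and 1.72 and 1.71 in Schwann-like cells. Neutrophil-like cells stood apart with 0.365 (interval 0.245 to 0.535) and 0.775 (0.469 to 1.27). In the control library this interval includes equality. Col4a2 stood at 18.0 and 16.2 CPM there, beside 6.59 and 12.6 CPM of Col4a1. For shares of cells, those with at least 2000 UMIs were thinned to 2000 UMIs and the others were left out. This kept 1099 of 1264 irradiated and 458 of 830 control neutrophil-like cells. Of these, 4.64% of irradiated and 3.06% of control cells held a Col4a2 UMI, compared with 0.410% and 0.813% of T and NK-like cells. No thinned neutrophil-like cell of either library held both chains. With Col4a1 seen in only 1.09% and 1.53% of them, so few cells with both could occur that this absence says little. The median depth of neutrophil-like cells before thinning was 3142 and 2103 UMIs.

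Detection per cell gave the same picture. At 2000 UMIs per cell, Col4a1 was seen in 83.3% of irradiated and 89.5% of control endothelial-like cells, in 74.7% and 90.6% of mural cells, and in 36.2% and 16.3% of mesenchymal-like cells. Neutrophil-like cells, which have no known basement membrane of their own, gave 1.09% and 1.53%. Without thinning, 74.7% of irradiated and 56.2% of control mesenchymal-like cells held a Col4a1 UMI, at median depths of 24363 and 25700.5 UMIs. Both chains were seen in the same cell in 67.9% and 74.8% of thinned endothelial-like cells, in 54.9% and 76.9% of mural cells and in 16.8% and 6.17% of mesenchymal-like cells.

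Across 19 class and library points, the correlation of log2(CPM + 10) between Col4a1 and Col4a2 was r = 0.994, the highest with Col4a1 among the members. Col4a1 correlated with the other members at r = 0.866 to 0.935, apart from Lama2 at r = 0.487. Among the 11227 genes with at least 20 CPM at 1 point or more, the 5 that are no members and most like Col4a1 were Kctd17 (r = 0.969), 9530026P05Rik (r = 0.966), Adamts9 (r = 0.965), Ginm1 (r = 0.965) and Tns2 (r = 0.964). These values are descriptions, since the points are 10 classes of the same 2 libraries and share their depth.

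Col15a1, at chr4:47208161-47313167, and Col18a1, at chr10:77052178-77166548, are related collagens whose C-terminal parts can be released as the antiangiogenic fragments restin and endostatin. They differed in the cells that held them. Col15a1 was mainly endothelial, with 589 CPM in irradiated and 674 CPM in control endothelial-like cells, and these cells supplied 56.8% and 60.3% of its UMIs. Mural cells held 135 and 208 CPM of Col15a1, Schwann-like cells 78.4 and 176 CPM, and mesenchymal-like cells 64.7 and 25.9 CPM. In the control lymphatic endothelial-like cells Col15a1 was at 3.59 CPM, while Col18a1 was at 452 CPM. Col18a1 was highest in mural cells, at 1271 and 1201 CPM, followed by Schwann-like cells at 912 and 1138 CPM and endothelial-like cells at 804 and 787 CPM, with the mural and Schwann-like intervals overlapping in the control library. Col18a1 was the only member with more than 100 CPM in a keratinocyte-like sample, at 109.7 and 89.5 CPM, and these cells supplied 24.97% and 20.3% of all Col18a1 UMIs.

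The endothelial-like and Schwann-like classes were each mixed for these collagens. In the irradiated library, the endothelial cluster led by Cd36 and Aqp1 held 39.9 CPM of Col18a1 and 343 CPM of Col15a1, while the larger endothelial cluster held 932 and 630 CPM of them. The mural cluster with Myh11 among its leading genes held 6.99 CPM of Col15a1 in the irradiated library, against 181 CPM in the other cluster of that class. The smaller Schwann cluster held 82.5 CPM of Col18a1, compared with 1072 CPM in the larger one. Genes most like Col15a1 over the same 19 points were Tmem47 (r = 0.966), Adamts7 (r = 0.937), Lims2 (r = 0.935), Lpar4 (r = 0.914) and Zfp46 (r = 0.901).

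Of the laminin alpha chains, Lama2 was held by stroma, nerve and mural cells and hardly by endothelium, while Lama4 was held by all of these. Lama2 (chr10:26980036-27619758) encodes the alpha 2 chain of the laminins of muscle and peripheral nerve, whose loss causes a congenital muscular dystrophy, and Lama4 (chr10:38965515-39110188) encodes the alpha 4 chain of vessel and nerve laminins. Lama2 stood at 279 CPM in irradiated and 111 CPM in control mesenchymal-like cells, at 273 and 448 CPM in Schwann-like cells, at 71.6 and 101 CPM in mural cells and at 1.90 and 2.48 CPM in endothelial-like cells. Mesenchymal-like cells supplied 81.2% and 81.8% of its UMIs. In the control library the Lama2 intervals of mesenchymal-like and mural cells overlapped. No Lama2 UMI was found in the control lymphatic endothelial-like cells, which had 477 CPM of Lama4, the highest Lama4 level of any control class. Lama4 was more even, at 238 and 282 CPM in Schwann-like, 229.8 and 266 CPM in endothelial-like, 158 and 144 CPM in mesenchymal-like and 139.6 and 204 CPM in mural cells. Lama4 had 121 UMIs per Lama2 UMI in irradiated and 108 in control endothelial-like cells, but 0.568 and 1.30 in mesenchymal-like cells.

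After thinning, Lama2 was seen in 37.7% of irradiated and 17.9% of control mesenchymal-like cells, against 0% and 0.218% of neutrophil-like cells. Among the 5 genes most like Lama2 were Scn7a (r = 0.993), Gpm6b (r = 0.979), Cdh2 (r = 0.967) and Zfp469 (r = 0.966), none of which was among those most like Col4a1 or Col15a1.

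Lamb1 (chr12:31265234-31329644) and Lamc1 (chr1:153218922-153332786) encode the beta 1 and gamma 1 chains that pair with either alpha chain. Lamb1 stood at 158 CPM in irradiated and 220.0 CPM in control mesenchymal-like cells, 174 and 203 CPM in Schwann-like cells, 157 and 175 CPM in endothelial-like cells and 99.98 and 138 CPM in mural cells. In the irradiated library the 3 highest classes had overlapping intervals with their neighbours in that order. Lamc1 stood at 393 and 331 CPM in mural cells, 301 and 373 CPM in endothelial-like cells, 229.8 and 373 CPM in Schwann-like cells and 229 and 177 CPM in mesenchymal-like cells. Lamb1 gave 0.689 UMIs per Lamc1 UMI in irradiated mesenchymal-like cells (interval 0.656 to 0.723) and 1.24 in control ones (1.21 to 1.27), so the more frequent chain differed between the libraries.

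Lamc1 was the member most widely seen outside the stroma and vessels. It stood at 68.0 and 104 CPM in T and NK-like cells and at 47.1 and 44.3 CPM in macrophage and monocyte-like cells, where Lamb1 gave 0.0120 and 0.0429 UMIs per Lamc1 UMI. Thinned to 2000 UMIs, 9.02% of irradiated and 12.2% of control T and NK-like cells and 8.03% and 6.94% of macrophage and monocyte-like cells held a Lamc1 UMI, against 0.364% and 0.218% of neutrophil-like cells. The unthinned shares were 16.3% and 27.9% in T and NK-like cells, at medians of 6220 and 4392.5 UMIs, and 24.7% and 21.7% in macrophage and monocyte-like cells, at medians of 9767.5 and 7684 UMIs.

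Nid1 (chr13:13437551-13512269) encodes nidogen-1, which binds both laminin and collagen IV, and Hspg2 (chr4:137468769-137570630) encodes the perlecan core protein. Nid1 was spread over 4 classes, at 318 and 418 CPM in mural, 294 and 427 CPM in Schwann-like, 289 and 268 CPM in endothelial-like and 266 and 205 CPM in mesenchymal-like cells. Hspg2 was highest in endothelial-like cells, at 543 and 552 CPM, followed by Schwann-like cells at 359.9 and 444 CPM, mesenchymal-like cells at 307 and 284 CPM and mural cells at 212 and 192 CPM. By number of transcripts both came mainly from mesenchymal-like cells, with 53.5% and 65.3% of Nid1 UMIs and 46.6% and 63.0% of Hspg2 UMIs.

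**Figure D2:**
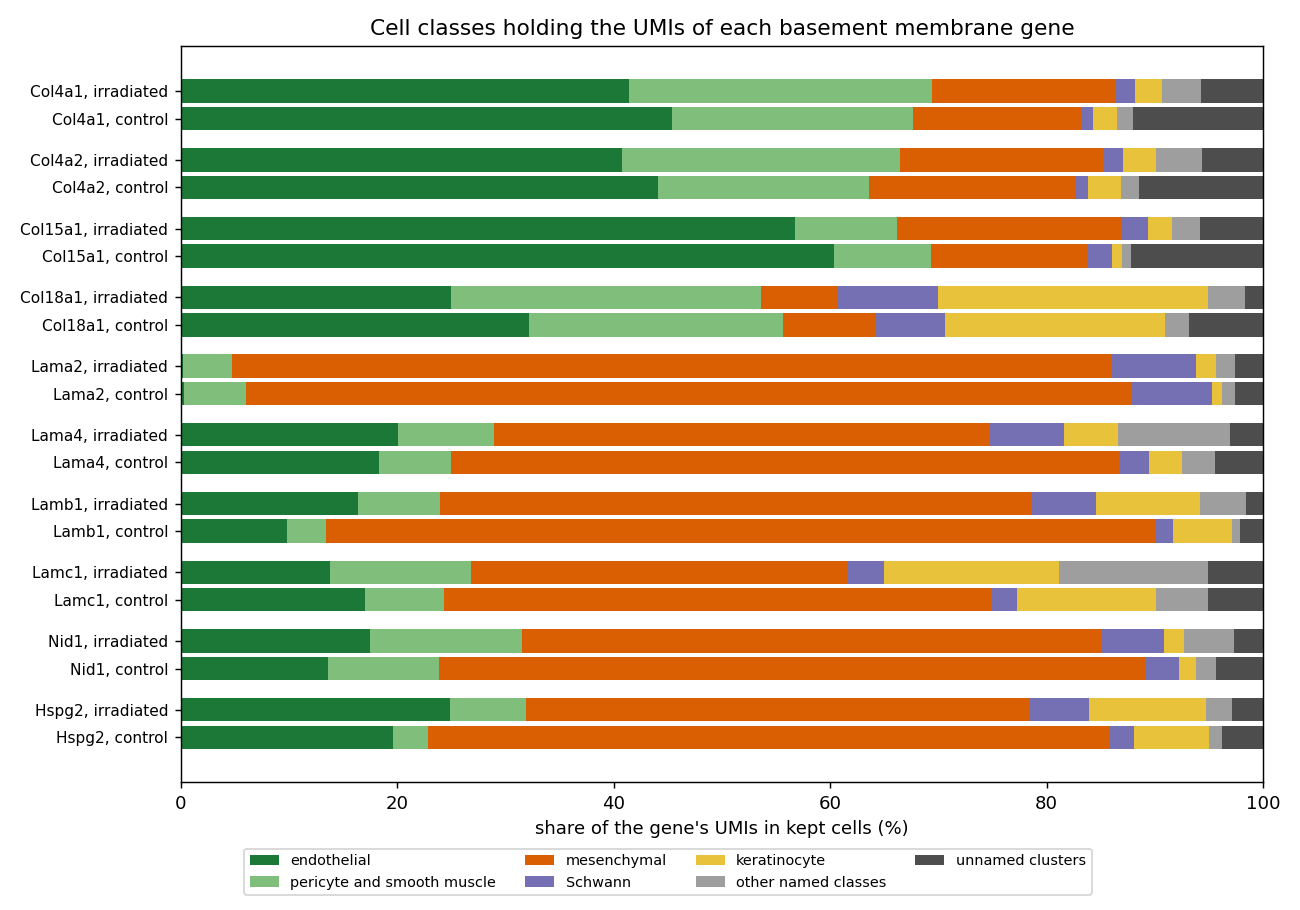
Share of each gene's UMIs, in percent, that came from each cell class, with the irradiated bar above the control bar for every gene. Endothelial-like cells make up most of the Col15a1 bars (56.8% and 60.3%) and mesenchymal-like cells most of the Lama2 bars (81.2% and 81.8%) and the control Lamb1 bar (54.6% and 76.7%).

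Over all kept cells, 8 of the 10 genes had a lower CPM in the irradiated library than in the control library, the exceptions being Lama2 (56.2 and 52.3 CPM) and Col18a1 (159 and 151 CPM). The share of all genes with a lower CPM over all kept cells is not given, so this count has no background. Lamb1 stood at 47.2 CPM over all irradiated cells and at 111 CPM over all control cells, and Hspg2 at 108 and 174 CPM. The irradiated library held a smaller share of mesenchymal-like cells, and the comparison was therefore made within each class.

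Within a class, a gene was called higher or lower in the irradiated library where its CPM differed at least 1.5-fold, the interval of the ratio left out equality and the libraries together held at least 20 UMIs. In mesenchymal-like cells 5 of the 10 genes were higher and 0 lower, on a background of 12.9% higher and 6.8% lower among 17197 genes tested. The higher genes were both collagen IV chains, both border collagens and the laminin alpha 2 chain. The median log2 ratio of the 10 genes was 0.63, against -0.02 over all genes tested.

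Col4a1 stood at 234 CPM in irradiated and 123 CPM in control mesenchymal-like cells, a log2 ratio of 0.93 (interval 0.88 to 0.99). Col4a2 stood at 149 and 80.5 CPM, a log2 ratio of 0.89 (0.82 to 0.96). The intervals of these chains, which form 1 molecule, overlapped. Col15a1 stood at 64.7 and 25.9 CPM (1.32, 1.21 to 1.43) and Col18a1 at 68.0 and 33.2 CPM (1.04, 0.93 to 1.14). Lama2 stood at 279 and 111 CPM, a log2 ratio of 1.33 (1.28 to 1.39). The other laminin chains, nidogen and perlecan did not reach 1.5-fold. Their log2 ratios were 0.14 for Lama4, 0.37 for Lamc1, 0.37 for Nid1, 0.11 for Hspg2 and -0.48 (-0.54 to -0.42) for Lamb1.

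**Figure D3:**
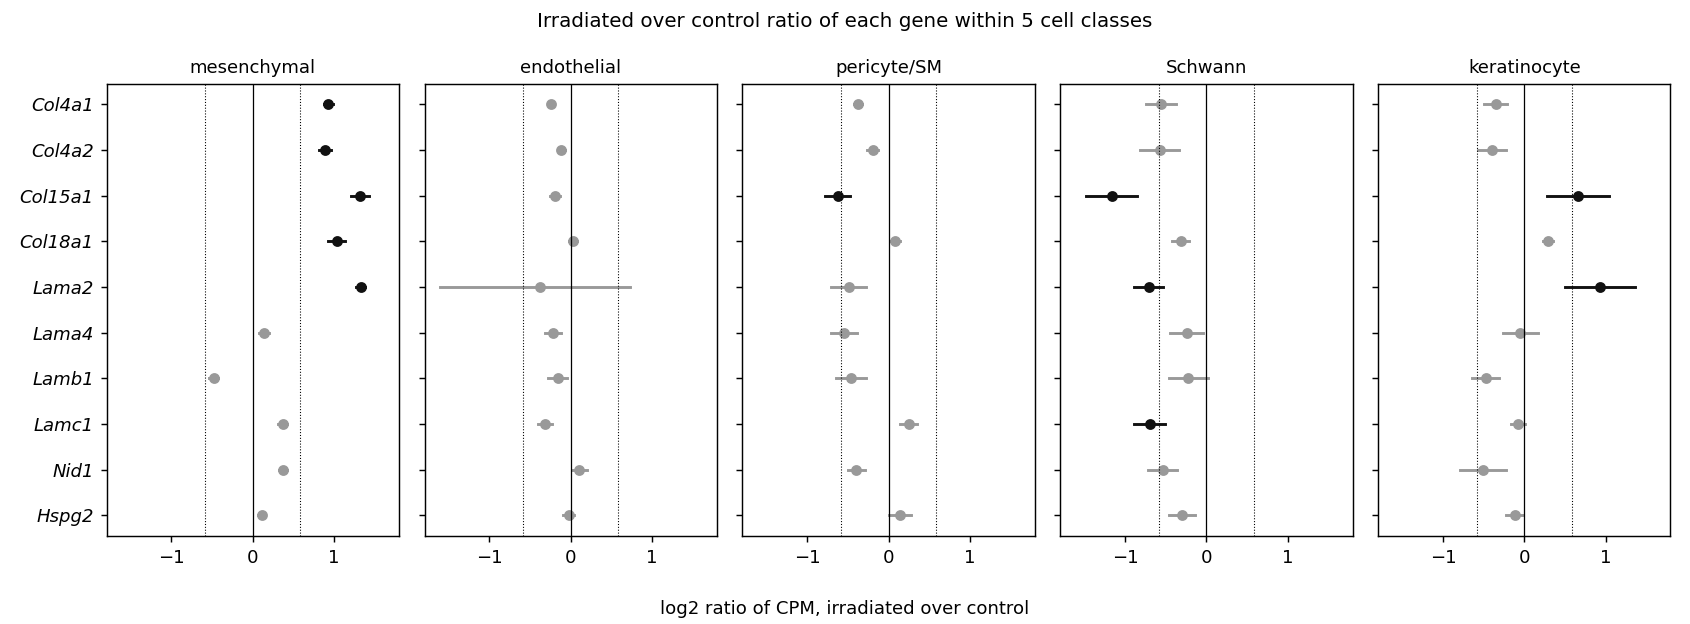
Log2 ratio of CPM, irradiated over control, for each gene in 5 cell classes, with 95% counting intervals as bars, black points for genes called higher or lower and dotted lines at 1.5-fold. In mesenchymal-like cells 5 genes lie past the upper line, in endothelial-like cells none passes either line, and in Schwann-like cells 3 lie past the lower line.

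The make-up of the mesenchymal-like class differed between the libraries, and the 10 genes were unevenly spread within it. The cluster led by fascial fibroblast genes such as Clec3b and Mfap5 made up 49.5% of irradiated (317 of 641) and 12.3% of control (285 of 2318) mesenchymal-like cells. The cluster with Ecrg4, Sfrp2 and Igf1 among its leading genes made up 9.83% and 36.3%, the cluster with Acta2, Cxcl5 and Lox 17.6% and 34.2%, and the cluster led by Thbs4 and Cthrc1 18.3% and 16.05%. The Clec3b cluster was the richest of these 4 in Col4a1, at 456 CPM in irradiated and 509 CPM in control cells, and the Ecrg4 cluster held 54.5 and 62.0 CPM, the least of the 4 in the irradiated library, while in the control library the Thbs4 cluster held less, at 57.0 CPM. Lama2 ran the same way, with 464 and 385 CPM in the Clec3b cluster and 28.3 and 49.9 CPM in the Ecrg4 cluster.

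Within the clusters most of the differences were smaller. In the Clec3b cluster no member was called, on a background of 6.63% higher and 5.44% lower, and Col15a1, for instance, stood at 133 CPM in irradiated and 152 CPM in control cells. In the Acta2 cluster Col18a1 (119 and 52.9 CPM, log2 ratio 1.17) and Lama2 (262 and 101 CPM, 1.37) were higher, on a background of 9.29% higher and 6.65% lower. The Thbs4 cluster is the main cluster of the subcluster led by Kera, Fmod and Tnmd. In it 4 collagens were higher: Col4a1 at 118 and 57.0 CPM (1.05), Col4a2 at 94.1 and 45.4 CPM (1.05), Col15a1 at 46.0 and 23.6 CPM (0.96) and Col18a1 at 44.5 and 18.6 CPM (1.26). The background in that cluster was 9.17% higher and 5.59% lower. In the Ecrg4 cluster Lama2 (-0.82) and Nid1 (99.2 and 169 CPM, -0.77) were lower, on a background of 8.29% higher and 8.93% lower. In the smallest cluster (31 and 26 cells) Col4a2 (208 and 351 CPM, -0.75) and Lama2 (1102 and 1799 CPM, -0.71) were lower, 2 of 8 tested on a background of 9.97% higher and 8.94% lower. Lamb1 lay below equality in all 5 clusters, with log2 ratios of -0.25 to -0.55, none of them called. Over 10 finer subclusters it was above its control CPM in 3 and called lower in 1. In the subcluster led by Clec3b, Sfrp4 and Tnxb it stood at 122 and 99.4 CPM (log2 ratio 0.30, 0.04 to 0.57).

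**Figure D4:**
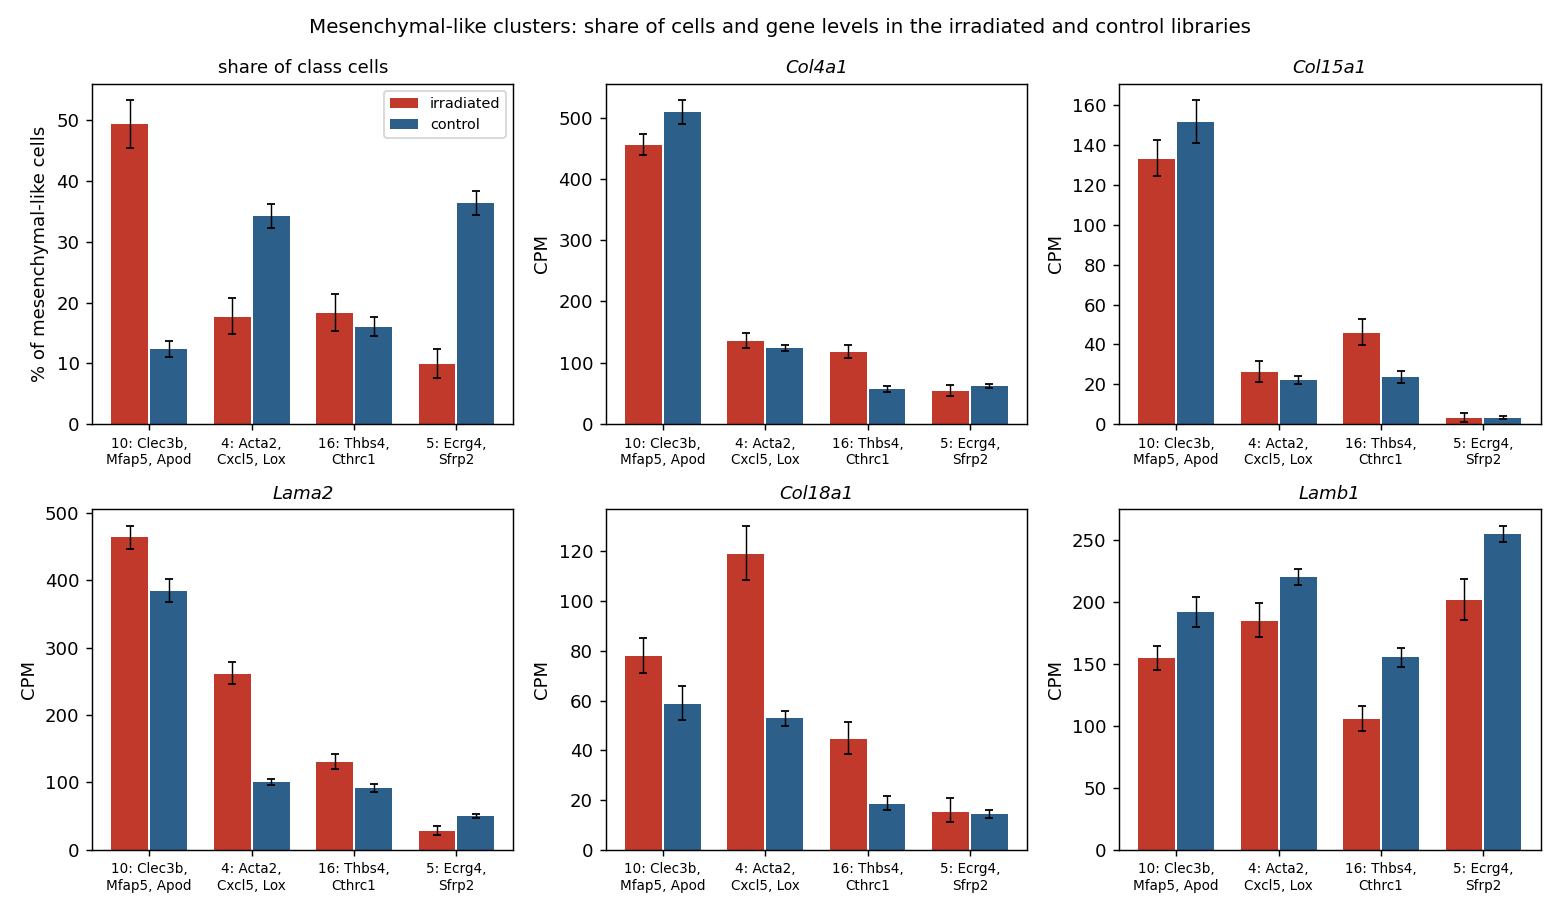
Share of mesenchymal-like cells, in percent, and CPM of Col4a1, Col15a1, Lama2, Col18a1 and Lamb1 in the 4 larger mesenchymal clusters, irradiated left of control. The Clec3b cluster makes up 49.5% of irradiated and 12.3% of control cells and has the highest Col4a1 in both libraries (456 and 509 CPM).

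The 5 clusters were then weighted alike in both libraries, each by its share of the cells of both libraries together. Larger clusters therefore counted for more, and no value with equal weights for all clusters is given. This left Col18a1 as the only member at 1.5-fold or more, with a log2 ratio of 0.85. Weighting 10 finer subclusters in the same way gave 0.70. Col18a1 was above its control CPM in the irradiated library in all 10 subclusters compared, of 13, and called higher in 5 of them. The rest held few irradiated or few control cells. Some of the 10 intervals included equality, and the subcluster led by Gpc5 held only 15 irradiated and 8 control UMIs. The share of all genes called is not given for subclusters. By the same weightings the log2 ratio of Col4a1 was 0.00 by clusters and -0.14 by subclusters, that of Col4a2 0.02 and -0.09, that of Col15a1 0.03 and -0.17, and that of Lama2 0.37 and 0.11. Setting the control level of each cluster at the irradiated cluster shares gave 238 CPM of Col4a1, beside 234 CPM measured in the irradiated class, and 65.0 CPM of Col15a1, beside 64.7 CPM measured. The same sum gave 39.9 CPM of Col18a1, beside 68.0 CPM measured, and 222 CPM of Lama2, beside 279 CPM measured.

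**Figure D5:**
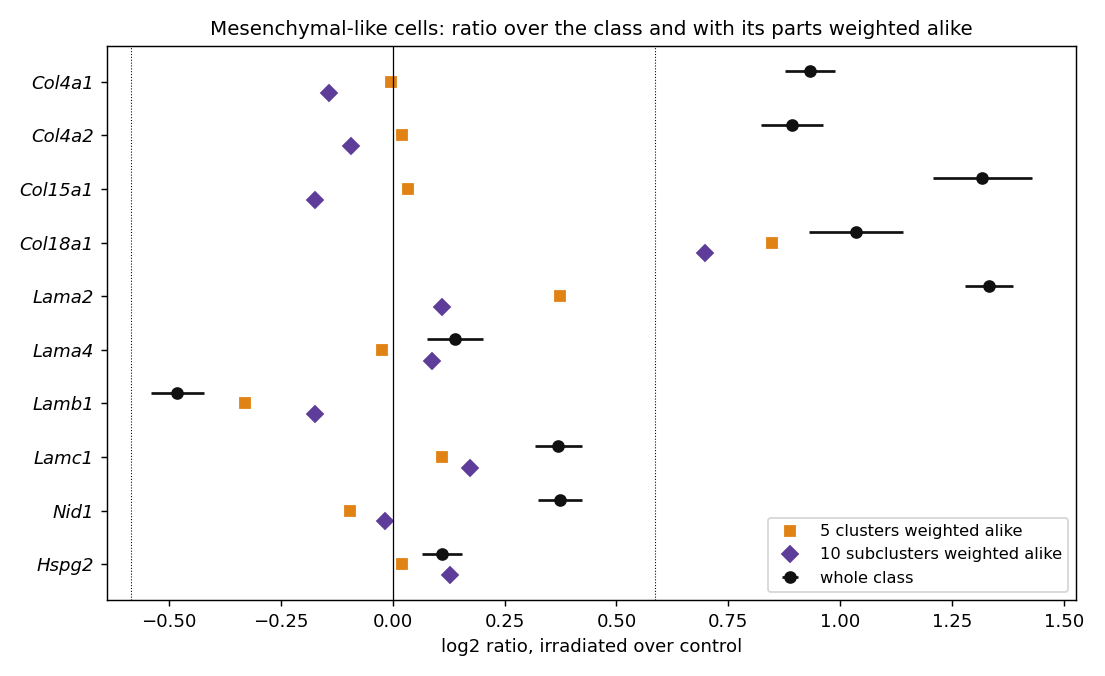
Log2 ratio, irradiated over control, of each gene in mesenchymal-like cells for the whole class, with the 5 clusters weighted alike and with 10 subclusters weighted alike. Each part has the same weight in both libraries, its share of the cells of both together. Col4a1, Col4a2 and Col15a1 lie near 0 once clusters or subclusters are weighted alike, and Col18a1 lies at 0.85 and 0.70.

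Markers of other cell types also differed within the mesenchymal-like class. Keratinocyte markers summed to 677 CPM in irradiated and 517 CPM in control cells (4 higher and 1 lower of 10). In the subcluster led by Krt15, Krt14 and Krt5 (18 irradiated and 70 control cells) they summed to 11415 and 5491 CPM. Macrophage markers summed to 320 CPM in irradiated and 132 CPM in control cells (10 of 10 higher), neutrophil markers to 205 and 68.6 CPM (6 of 7 higher), red cell markers to 399.6 and 46.8 CPM (4 of 5 higher) and fat cell markers to 598 and 229 CPM (5 of 6 higher). Endothelial markers summed to 62.5 and 53.7 CPM (1 higher and 4 lower of 9, none at 0) and pericyte markers to 527 and 1008 CPM (3 higher and 3 lower of 10, with Higd1b at 0 in irradiated cells). Without the 2 subclusters that carried markers of other types, which left 572 irradiated and 2175 control cells, 5 genes were again higher and 0 lower, on a background of 10.4% higher and 7.51% lower. The log2 ratios were then 1.02 for Col4a1, 1.00 for Col4a2, 1.41 for Col15a1, 1.07 for Col18a1 and 1.42 for Lama2.

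In endothelial-like cells 0 of the 10 genes were higher and 0 lower, on a background of 8.55% higher and 4.76% lower among 13329 genes. The log2 ratios ran from -0.38 for Lama2, at 10 irradiated UMIs, to 0.11 for Nid1, with a median of -0.18 against 0.01 over all genes. The ratio of Col4a1 was -0.24 (-0.27 to -0.20) and that of Hspg2 -0.02 (-0.09 to 0.04). The Cd36 and Aqp1 cluster made up 82 of 314 irradiated and 20 of 512 control endothelial-like cells, and within it Col15a1 (343 and 640.2 CPM, log2 ratio -0.90) and Col18a1 (39.9 and 145 CPM, -1.86) were lower, 2 of 9 tested on a background of 5.69% higher and 5.13% lower. In the larger cluster no member was called, on a background of 7.63% and 4.68%.

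In mural cells 0 genes were higher and 1 was lower, on a background of 7.82% higher and 6.34% lower. Col15a1 was the lower one, at 135 CPM in irradiated and 208 CPM in control cells, a log2 ratio of -0.63 (-0.78 to -0.47), and 1 irradiated cell held 97 of its 515 UMIs there. The median log2 ratio was -0.39, against -0.03 over all genes, with Lamc1 at 0.25, Col18a1 at 0.08 and Hspg2 at 0.14 on the other side of equality. No member was called in the larger cluster of the class, on a background of 7.14% higher and 7.02% lower. In the Myh11 cluster Nid1 was lower, at 119.9 CPM in irradiated and 189 CPM in control cells, on a background of 5.95% and 3.64%. Macrophage markers summed to 309.9 CPM in irradiated and 148 CPM in control mural cells (8 of 10 higher) and neutrophil markers to 439.8 and 121 CPM (5 of 5 tested higher, 7 in the list). Red cell markers summed to 230.1 and 562 CPM (4 of 4 tested lower, 5 in the list) and endothelial markers to 535 and 607 CPM (2 of 7 tested lower, 9 in the list), and the part of these in the ratios was not tested. The call of Col15a1 was lost under a stricter cell filter and with no doublets removed.

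In Schwann-like cells 0 genes were higher and 3 were lower, on a background of 7.39% higher and 8.09% lower among 10232 genes. Col15a1 was lower at 78.4 CPM in irradiated and 176 CPM in control cells (log2 ratio -1.17, -1.48 to -0.86), Lama2 at 273 and 448 CPM (-0.71, -0.89 to -0.54) and Lamc1 at 229.8 and 373 CPM (-0.70, -0.89 to -0.51). All 10 ratios were below equality, with a median of -0.55 against -0.04. The smaller cluster held 53 of 134 irradiated and 21 of 104 control Schwann-like cells. In the larger cluster, with 81 and 83 cells, 6 genes were lower and 0 higher, on a background of 8.1% lower and 6.74% higher. In the smaller cluster Lamb1 was higher (427 and 177 CPM, 1.27) while Col18a1 (82.5 and 164 CPM, -0.99) and Lama4 (129 and 282 CPM, -1.13) were lower, on a background of 8.28% higher and 9.08% lower. Mesenchymal markers summed to 2915 CPM in irradiated and 6408 CPM in control Schwann-like cells (1 higher and 4 lower of 8 tested, 12 in the list), keratinocyte markers to 183 and 1419 CPM, and macrophage markers to 592 and 73.7 CPM, and their part in these ratios was not tested. None of the 3 genes was called under a stricter cell filter or with no doublets removed (in that last case Lama4 was lower and Lamb1 higher), but the class then held 24 irradiated and 11 control cells, or 54 and 19, since 1 of its clusters lost its name, so these values come from a different set of cells. Without the cell that held most UMIs of each gene, 6 of 10 were lower, and the share over all genes is not given for this setting. The added ones, Col4a1, Col4a2 and Nid1, were just within 1.5-fold with that cell, at log2 ratios of -0.56, -0.58 and -0.54.

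In keratinocyte-like cells Col15a1 and Lama2 were higher, 2 of 10, and 0 were lower, on a background of 7.27% higher and 7.4% lower. Both were at the lowest levels of any member there, Col15a1 at 3.17 CPM in irradiated and 2.01 CPM in control cells and Lama2 at 2.83 and 1.49 CPM. A single irradiated cell held 54 of the 122 Col15a1 UMIs, or 44.3%, together with 120 Col4a1 UMIs and 440 UMIs of endothelial markers, while the median cell of the class had 0 endothelial marker UMIs. Col18a1, the main member in these cells, had a log2 ratio of 0.29 (0.23 to 0.35). Without the cell that held most UMIs of each gene, 1 gene was higher and 2 were lower, and with no doublets removed 0 were higher and 4 lower. Shares over all genes are not given for these settings.

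The 7 clusters of keratinocyte-like cells went both ways. In the cluster led by Krt6b and Krt16, keratins of wounded epidermis, which made up 89 of 1267 irradiated and 401 of 2112 control cells, 6 of 10 genes were higher and 0 lower, on a background of 6.42% higher and 7.64% lower. Col4a1 stood there at 59.9 CPM in irradiated and 11.2 CPM in control cells and Col15a1 at 21.0 and 1.71 CPM. The irradiated cell with 440 endothelial marker UMIs lay in this cluster, and it held 120 Col4a1, 80 Col4a2, 54 Col15a1 and 46 Hspg2 UMIs. The levels and calls of the cluster include that cell, and its part in them was not tested. In the cluster with Krt15 and Lgr5 among its leading genes (263 and 234 cells) 1 of 8 was higher and 5 were lower, on a background of 6.6% and 9.19%, with Col4a1 at 28.3 and 74.4 CPM and Lamc1 at 84.6 and 176 CPM. In the cluster with Lor and Flg, genes of the outermost living epidermis, among its leading genes (29 and 91 cells) 9 of 9 were lower, on a background of 18.9% lower and 5.65% higher. In the Krt5 and Col17a1 cluster (346 and 341 cells) 4 of 7 were lower and 0 higher, on a background of 9.41% lower and 5.16% higher. In the Cst6 and Krt79 cluster (241 and 314 cells) 4 of 8 were lower and 0 higher, on a background of 9.19% and 5.51%. In the Krt2 cluster (156 and 244 cells) 1 was higher and 3 were lower, on a background of 4.53% and 6.99%, and in the Krt6a and Aqp3 cluster (143 and 487 cells) 3 were higher and 0 lower, on a background of 5.23% and 5.87%. Mesenchymal markers summed to 572 CPM in irradiated and 1233 CPM in control keratinocyte-like cells (2 higher and 9 lower of 12), and their part was not tested.

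Among the immune cells, the calls were mostly of lower levels, in genes at a few CPM. In macrophage and monocyte-like cells 5 of 9 genes tested were lower and 0 higher, on a background of 12.6% lower and 6.71% higher, and in neutrophil-like cells 3 of 7 were lower and 0 higher, on a background of 22.8% and 5.21%. In macrophage and monocyte-like cells the lower genes were Col4a1 (4.53 CPM in irradiated and 9.02 CPM in control cells), Col18a1 (6.04 and 9.34 CPM), Lamb1, Nid1 and Hspg2, and in neutrophil-like cells Col4a1 (6.59 and 12.6 CPM), Col18a1 and Nid1. The median log2 ratio of all genes was -0.13 and -0.32 in these classes. Mesenchymal markers summed to 128 CPM in irradiated and 530.1 CPM in control macrophage and monocyte-like cells, with 9 of 11 tested lower, and to 172 and 840.1 CPM in neutrophil-like cells, with 9 of 9 tested lower. Keratinocyte markers summed to 323 and 1132 CPM in neutrophil-like cells, with 8 of 9 tested lower. The clusters that make up these classes also differed in size between the libraries, with 404 irradiated and 58 control cells in the macrophage cluster led by Cxcl3 and Arg1, 262 and 28 in the one led by Ly6c2 and Ms4a4c, and 453 and 55 in the neutrophil cluster with Ccl3 among its leading genes. The part of the markers and of the clusters in these ratios was not tested. Lamc1, the best captured member in macrophages, stood at 47.1 and 44.3 CPM, a log2 ratio of 0.09 (-0.06 to 0.24). In T and NK-like cells 1 of 4 genes tested was higher (Col4a1, 24.2 and 3.81 CPM) and 1 lower (Lamc1), on a background of 6.01% higher and 7.45% lower, and 40 of the 48 irradiated Col4a1 UMIs came from 1 cell. In dendritic-like cells 0 of 2 were higher or lower, on a background of 6.39% and 5.9%.

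The members were set beside 3 further gene lists of the same pathway. Of 29 other basement membrane components, 10 were higher and 4 lower in mesenchymal-like cells, on the background of 12.9% higher and 6.8% lower, with a median log2 ratio of 0.36. The minor collagen IV chains Col4a3 (2.18 CPM in irradiated and 0.495 CPM in control cells) and Col4a6 (1.89 and 0.330 CPM) and pikachurin (Egflam, 10.6 and 2.74 CPM) had the highest ratios among them. The matricellular gene Smoc1 was lower, at 37.7 and 80.8 CPM, as were Egfl6 (1.78 and 6.50 CPM) and the laminin alpha 1 chain Lama1 (0.115 and 0.610 CPM). Of 15 basement membrane receptors, 5 were higher and 0 lower, with the laminin receptors Itgb4 (7.46 and 2.57 CPM) and Bcam (3.90 and 1.91 CPM) and the collagen receptor subunit Itga2 (6.48 and 3.30 CPM) leading. None of 16 genes for collagen IV and laminin assembly and secretion was called, and their median was -0.10. These counts are of the pooled class. Keratinocyte markers summed to 677 CPM in irradiated and 517 CPM in control cells of that class. Itgb4 and Col4a6 stood higher in keratinocyte-like cells, as given below. The part of such transcripts in these low levels was not tested. With the 5 clusters weighted alike and counted by size only, 6 of the 10 higher and 4 of the 4 lower other components were still past 1.5-fold in the same direction, as were 3 of the 5 higher receptors, and the median log2 ratio of the other components was 0.19. The share of all genes past 1.5-fold by this weighting is not given, and no interval was used. Genes at levels as low as those of Lama1 and Col4a6 can pass 1.5-fold on few UMIs. The counts in the classes below are pooled and were not weighted by cluster.

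In endothelial-like cells 5 of 15 receptors were higher and 0 lower, on the background of 8.55% higher and 4.76% lower, among them the collagen-binding integrin subunit Itga1 (230.1 CPM in irradiated and 101 CPM in control cells) and Bcam (89.0 and 38.9 CPM), the laminin alpha 5 receptor. Of the assembly genes 4 of 16 were lower and 0 higher, led by the lysyl oxidase Loxl2 (3.04 and 15.4 CPM), the lysyl hydroxylase Plod2 (19.2 and 34.0 CPM) and the prolyl hydroxylase P3h1 (11.98 and 20.9 CPM). Of 18 other components tested 3 were higher, Ntn4 (9.13 and 3.61 CPM), agrin (Agrn, 39.9 and 24.3 CPM) and Lama3 (45.3 and 29.9 CPM), and 4 were lower.

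In mural cells 7 of 21 other components were higher and 3 lower, on the background of 7.82% and 6.34%. The collagen IV alpha 5 chain (Col4a5, 49.9 CPM in irradiated and 16.2 CPM in control cells) and nephronectin (Npnt, 22.0 and 5.17 CPM) were among the higher ones, and nidogen-2 (Nid2, 38.6 and 61.2 CPM) was lower. Of 15 receptors 3 were higher, including Bcam (183 and 96.5 CPM), and the laminin-binding integrin subunit Itga6 was lower (26.8 and 71.9 CPM). None of the 16 assembly genes was called.

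In Schwann-like cells the assembly genes were mostly on the lower side, with 9 of 16 lower and 0 higher, on the background of 8.09% lower and 7.39% higher, and a median log2 ratio of -0.63. The collagen IV prolyl hydroxylase P3h2 stood at 72.0 CPM in irradiated and 198 CPM in control cells, and among the receptors Itga1 was lower at 122 and 248 CPM. Of 14 other components tested 3 were higher and 7 lower. In keratinocyte-like cells 9 of 28 other components were higher and 6 lower, on the background of 7.27% and 7.4%, including higher Col4a6 (48.1 and 17.8 CPM) and lower Fras1 (8.58 and 21.6 CPM), a component of the basement membrane under the epidermis. Of 15 receptors 4 were higher and 1 lower, with Mcam at 56.9 and 7.43 CPM and the hemidesmosome integrin subunit Itgb4 at 153 and 89.0 CPM. Of 16 assembly genes 1 was higher, P3h2 at 142 and 88.0 CPM, and 6 were lower.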

How the data were processed

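Single-cell RNA of unsorted wound cells was measured in 1 irradiated and 1 control library. The deposited matrices hold raw UMI counts per gene and cell that the authors made with Cell Ranger (version 5 on mm10 per the submitters' processing notes, 5.0.1 per the file headers). Barcodes needed 500 genes, 1000 UMIs and a mitochondrial share of no more than 10%, and doublets marked by Scrublet in scanpy 1.11.5 were removed. Counts scaled to 10000 per cell were clustered over 2000 variable genes without the members and the 3 gene lists (30 principal components, 15 neighbours, Leiden resolution 1.0, seed 0). A cluster was named where at least 3 markers of a type reached 50 CPM and 2 times the median cluster, no type of another lineage scored above 0.75 of its score, and its leading genes did not go against the name. Mesenchymal, tendon and cartilage markers counted as 1 lineage, as did endothelial with lymphatic and macrophage with osteoclast and dendritic markers.

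UMIs were summed per class and library, CPM was given with exact Poisson intervals, ratios with exact conditional intervals and shares with Clopper-Pearson intervals at 95%, all for counting error only. Levels were given for classes of at least 50 cells in a library and ratios for at least 100 in each. Cells with fewer than 2000 UMIs were left out of every value given after thinning. The ratio call was checked on simulated class sums with counting error only, without spread between cells, and thinning was checked for its total. Filtering, doublet removal, clustering, naming and weighting were not checked in this way. The members and lists were chosen with earlier results of these data known. From each list, up to 3 called genes with the highest and 3 with the lowest ratio in a class were eligible to be named, and the 5 genes most like Col4a1, Col15a1 and Lama2. A gene that these rules name is not reported here. The alternatives covered cell filters, doublets, clustering, thinning to 2000 UMIs, the fold threshold and the make-up of classes. Gene positions are on GRCm38. Col4a1 and Col4a2 overlap on opposite strands. Tools were Python 3.11.15, anndata 0.12.19, numpy 2.4.6, scipy 1.17.1, pandas 2.3.3, scikit-learn 1.9.0, leidenalg 0.10.2, igraph 0.11.9 and matplotlib 3.10.9.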

Additional observations from a re-analysis of the deposited data

Results flagged for a closer look

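Some genes were called higher in the irradiated library in one cell class and lower in another. The difference between the log2 ratios is given for each such pair. None was tested, since each group was 1 library.

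Col4a1 was higher in mesenchymal-like cells and lower in macrophage and monocyte-like and neutrophil-like cells, and the log2 ratios differed by 1.93 and 1.86. It was also higher in T and NK-like cells, where 1 cell held 40 of 48 irradiated UMIs, and there the differences from macrophage and monocyte-like and neutrophil-like cells were 3.66 and 3.6. Col15a1 was higher in mesenchymal-like cells and lower in Schwann-like and mural cells, with differences of 2.49 and 1.94. From keratinocyte-like cells, where 1 irradiated cell held 54 of 122 Col15a1 UMIs, to the same classes the differences were 1.83 and 1.28. Col18a1 was higher in mesenchymal-like cells and lower in macrophage and monocyte-like and neutrophil-like cells, with differences of 1.67 and 2.64. In neutrophil-like cells its log2 ratio rested on 10 irradiated and 13 control UMIs (interval -2.95 to -0.30). Lama2 was higher in mesenchymal-like cells and lower in Schwann-like cells, a difference of 2.05, and the difference between keratinocyte-like and Schwann-like cells was 1.64. The mesenchymal ratios in these pairs are of the pooled class. With its clusters weighted alike they were -0.0047 for Col4a1, 0.03 for Col15a1, 0.37 for Lama2 and 0.85 for Col18a1. The Schwann-like and mural calls were lost under a stricter cell filter and with no doublets removed. Without the cell that holds most of a gene's UMIs in each library, the calls were 0 higher and 1 lower in T and NK-like cells. They were 1 higher and 2 lower in keratinocyte-like cells, and shares over all genes are not given for this setting.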

How the results depend on the processing

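The counts of called genes were recomputed under 11 alternative settings and 6 more chosen after seeing the data, which gave 122 values, of which 97 stayed near the reported count and 25 moved. The endothelial-like count stayed at 0 higher and 0 lower under those that apply to it. The 5 higher genes in mesenchymal-like cells became 3 at 2-fold, 3 without the Clec3b cluster, and 1 with subclusters or clusters weighted alike. Both weightings give a part of the class the same weight in both libraries. That weight is its share of the cells of both libraries together, so larger parts count for more. With subclusters weighted alike the log2 ratios of Col4a1 (-0.14), Col4a2 (-0.0935) and Col15a1 (-0.17) fell below equality. With clusters weighted alike that of Col4a1 was -0.0047, at about equality. The 1 lower gene in mural cells became 0 under the stricter cell filter, with no doublets removed or at 2-fold, and 3 after thinning. In Schwann-like cells the 3 lower became 0 under the stricter filter (24 and 11 cells) and 1 with no doublets removed (54 and 19 cells), where 1 Schwann cluster lost its name and the cells are a different set, 1 at 2-fold, 5 with the members among the clustering genes and 6 without each gene's highest cell, and the 0 higher became 1 with no doublets removed. In keratinocyte-like cells the 2 higher became 1 at an equal doublet threshold, at resolution 0.5 or 2.0 or without the highest cells, and 0 with no doublets removed, after thinning or at 2-fold. The 0 lower there became 1 at an equal doublet threshold or after thinning, 4 with no doublets removed and 2 without the highest cells. The cause of these shifts was not tested, and shares over all genes are not given beside these counts. No paired analysis was possible because each group was 1 library. With 1 library a group no spread between animals can be given, and members at a few CPM rest on few cells.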

Other observations

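The cluster left unnamed because it carried both endothelial and pericyte markers, with 47 irradiated and 79 control cells, held 2715 CPM of Col4a1 in the control library, above every named control class. Counting it as endothelial-like left 0 genes higher and 0 lower in that class. The mesenchymal subcluster led by Clec3b, Sfrp4 and Pi16 made up 27.0% of irradiated and 4.83% of control mesenchymal-like cells, and there Col4a1 stood at 572 and 931 CPM and was lower, and Col15a1 stood at 116 and 263 CPM. The smallest mesenchymal cluster, led by Igfbp3 and Gpc5, with 31 irradiated and 26 control cells, held 1102 and 1799 CPM of Lama2, the highest Lama2 level of the 5 mesenchymal clusters.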
